A study of Homo sapiens with 6 samples.

Results

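The nuclear-encoded subunits of the respiratory chain and ATP synthase, with the assembly factors and relatives that share their gene symbols, were compared between AKT inhibitor-resistant and control PC-3 cells. Members were the rows whose symbol begins with NDUF, UQCR, ATP5 or COX4 to COX8, or is SDHA, SDHB, SDHC or SDHD. Of 27734 rows, 102 were members, after 1 matching row on chromosome 13 had been left out. The rule used names and no measured values, but it was chosen with earlier results of these data known. Of the 102 members, 93 had a mean of at least 1 FPKM (fragments scaled to mRNA length and library total) over the 6 libraries and a unique symbol, and were tested among 13070 such genes.

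PC-3 is an established human prostate cancer cell line. The resistant line (GDC-R) was held under continuous GDC-0068 (ipatasertib), which inhibits AKT kinases, and control cells received the vehicle DMSO in parallel. Both were grown in RPMI medium with fetal bovine serum at passages 20 to 30 and were measured as total RNA in 3 libraries per group. The sources used here do not give the drug dose or say whether drug was present at harvest. The labels name 1 resistant and 1 control line, and leave unsaid whether replicate libraries are separate cultures. What the p-values measure is the spread among these libraries, which may be technical. In bulk RNA, fewer cells of a kind and less RNA per cell cannot be told apart.

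Oxidative phosphorylation passes electrons from NADH (complex I) or succinate (complex II) through ubiquinone to complex III, through cytochrome c to complex IV, and from there to oxygen. Complexes I, III and IV pump protons across the inner mitochondrial membrane, and ATP synthase (complex V) makes ATP from the proton gradient. Most subunits are nuclear-encoded and imported, complex II entirely so, and the others join subunits made from mitochondrial DNA. NDUFA4 and NDUFA4L2, named after complex I, were placed in complex IV, where the NDUFA4 protein is found.

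Summed over gene rows, libraries held 35562400 to 44279078 fragments, which was 5.56% to 5.84% above the authors' fragment totals. Whether fragments were counted in more than 1 row, as where rows overlap, was not tested. Control replicate 1 stood apart from the other controls by base composition: Spearman's rho between its deviation from the control mean and transcript GC content was -0.762 over 12695 genes, which are not independent replicates. The epithelial markers KRT8, KRT18, KRT19, EPCAM and CDH1 lay between 32.9 and 664 FPKM, and their sum was 1360.2 to 1536 FPKM in control and 1273 to 1342 in GDC-R libraries. CDH1 went from 65.2 ± 1.24 to 34.0 ± 0.988 FPKM, a log2 change of -0.96 ± 0.04 (edgeR adjusted p = 1.16e-06) that was further from 0 than that of any tested member. KRT19 (-0.34) and EPCAM (-0.27) were also called lower, and KRT8 and KRT18 did not pass. Of the prostate luminal markers, KLK2 and KLK3 were listed at 0 in every library. The 5 leukocyte markers summed to 0.122 to 0.135 FPKM in control and 0.176 to 0.319 in GDC-R libraries, and no single marker exceeded 0.187 FPKM. The 6 endothelial and fibroblast markers summed to 3.41 to 4.47 and 2.19 to 2.42 FPKM, mostly COL1A1. Whether these markers bear on the results below was not tested.

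Most members were lower in the resistant cells, by small amounts. Of the 93 tested, 53 fell and 4 rose, while 36 did not pass, 23 of those with values below 0. The 57.0% that fell compare with 25.7% of all tested genes, and the 4.30% that rose with 24.5%, where 50.2% of all genes passed in either direction. Genes were called by the edgeR quasi-likelihood test where the p, adjusted by Benjamini-Hochberg over the 13070 genes, was under 0.05. The median log2 fold change was -0.19 over the members and -0.01 over all tested genes. Member values ran from -0.70 for NDUFA5 to 0.39 for ATP5G2, and none changed by 2-fold or more. In 56 members (60.2%) every GDC-R library was below every control in FPKM, and in 6 every GDC-R library was above, against 28.5% and 31.9% of all tested genes.

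The median member stood at similar levels in the 3 GDC-R libraries. Relative to the control mean, the median member stood at a log2 value of -0.02, -0.00 and 0.01 in control replicates 1 to 3. It stood at -0.18, -0.19 and -0.20 in GDC-R replicates 1 to 3. Members took 1.25% to 1.30% of fragments in control libraries and 1.14% to 1.15% in GDC-R libraries, with no overlap.

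**Figure D1:**
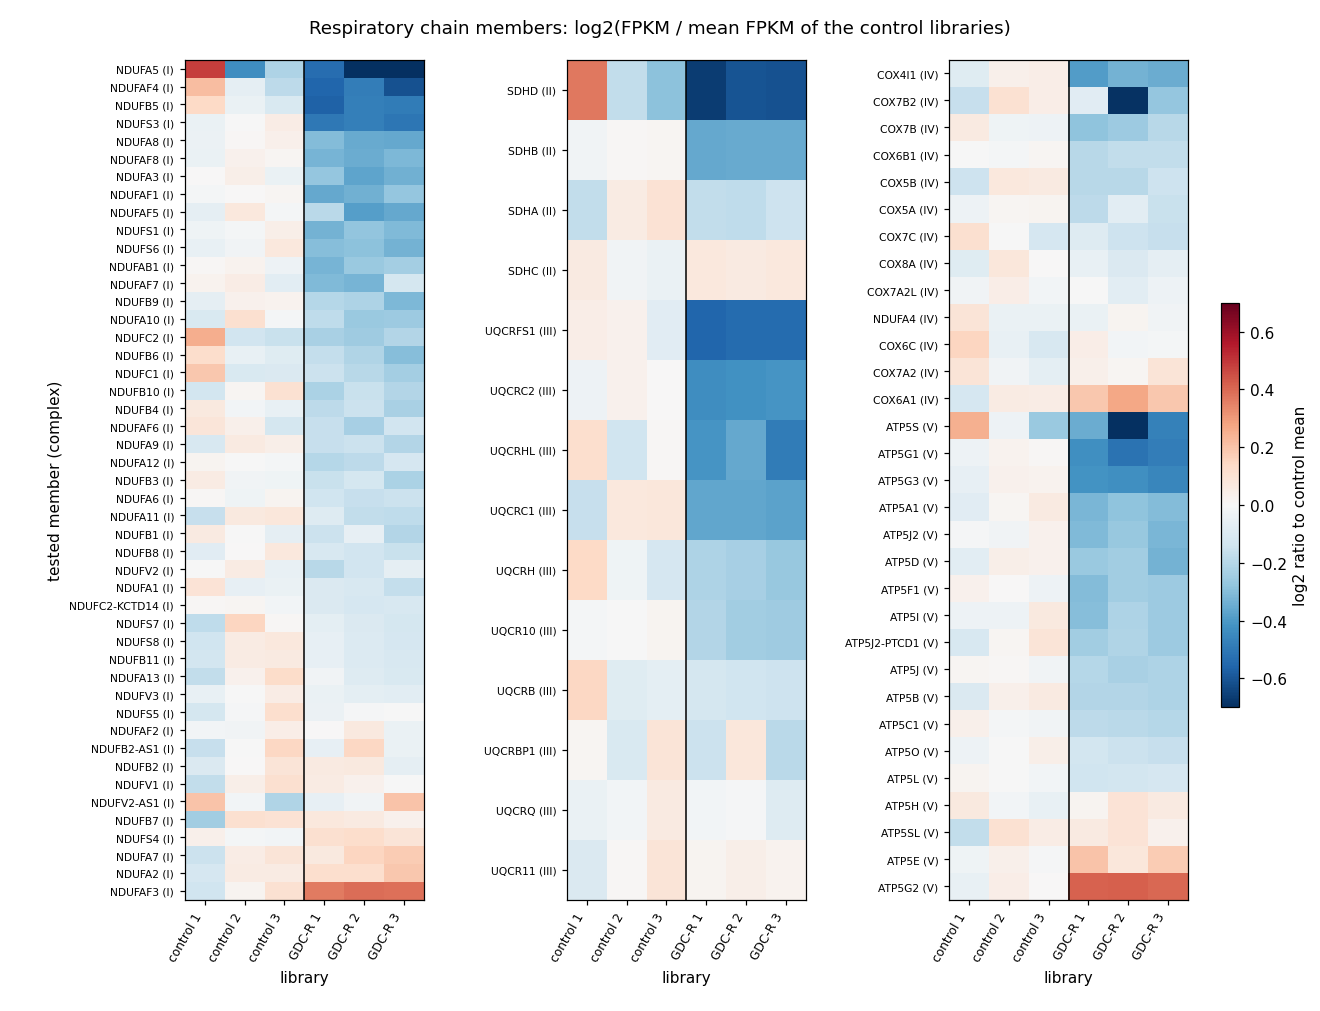
Heat map of tested members (vertical axis, grouped by complex, 1 not shown) in the 6 libraries (horizontal axis), coloured by log2 of FPKM over the control mean, with end colours for values beyond 0.7 in either direction. The GDC-R columns are mostly on the lower side, with ATP5G2 and NDUFAF3 among the few members on the higher side, and control replicate 1 departs from the other controls at SDHD and NDUFA5.

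Summed FPKM was lower in GDC-R than in control libraries in each complex, by different shares. Complex II went from 321.6 ± 2.72 FPKM (SD, n = 3) to 260.0 ± 1.44, a change of -19.1%. Complex III went from 1125 ± 14.2 to 922 ± 11.9 FPKM, a change of -18.1%. These were the larger changes, and in both complexes the GDC-R and control sums did not overlap. The complex III sum includes the copy UQCRHL and the pseudogene row UQCRBP1, and without them the change was -17.4%. It leaves out CYC1, a complex III subunit that is no member by symbol and stood at 444 FPKM in control. Complex V changed from 3547 ± 72.9 to 3210.4 ± 9.14 FPKM (-9.49%), complex I from 4763 ± 162 to 4346 ± 49.4 (-8.75%) and complex IV from 3860.5 ± 57.3 to 3583 ± 12.8 (-7.18%). Over the 102 members the sum changed from 13617 ± 239 to 12322 ± 58.7 FPKM, or -9.51%. These sums are descriptions and were not tested.

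**Figure D2:**
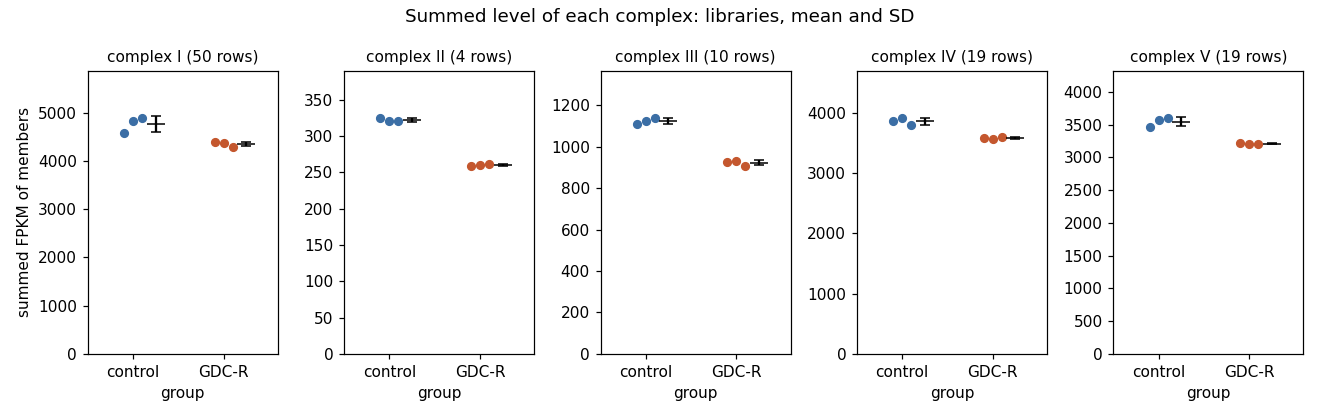
Summed FPKM of the members of each complex (vertical axis, from 0) by library (points), with the mean and SD of each group. In each of the 5 complexes the 3 GDC-R sums lie below the 3 control sums.

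In complex I, the NADH-ubiquinone oxidoreductase, 25 of 48 tested members fell, 1 rose and 22 did not pass, and the median log2 fold change was -0.18. The 7 nuclear core subunits, which carry the flavin and the iron-sulphur clusters, split: 3 fell and 4 did not pass. These counts were 5 and 2 without control replicate 1, and 2 and 5 without any of the GDC-R libraries. NDUFS3, a core subunit of the ubiquinone-reducing arm (hg19 chromosome 11, 47600562 to 47606115), measured 98.3, 101 and 105 FPKM in control replicates 1 to 3. It measured 71.9, 72.9 and 71.4 FPKM in GDC-R replicates 1 to 3. Every GDC-R library was below every control, and the log2 fold change was -0.52 ± 0.05 (SE; edgeR adjusted p = 4.10e-05). The gene overlaps KBTBD4 on the opposite strand, and no source used here gives the strand setting of the counts.

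NDUFS1, the largest core subunit, which holds iron-sulphur clusters of the electron path, measured 64.5, 65.1 and 67.5 FPKM in control and 52.2, 54.2 and 53.0 in GDC-R libraries. The groups did not overlap, and it fell by 0.33 ± 0.04 on the log2 scale (edgeR adjusted p = 2.77e-04). NDUFV2, another iron-sulphur subunit, fell by 0.15, from 87.8 ± 3.35 to 80.3 ± 3.61 FPKM, and passed in few of the alternatives. The call was lost without control replicate 2 or any GDC-R library, by DESeq2, by limma, with library totals, at a mean FPKM of at least 5, with the replicate block, and with the GC correction, where NDUFV2 was at -0.05. Among the core subunits that did not pass, NDUFV1, which binds NADH, had a log2 fold change of 0.01 ± 0.07, NDUFS8 -0.11 ± 0.06 and NDUFS7 -0.12 ± 0.08. In these 3 the FPKM of the groups overlapped. Without control replicate 1, NDUFS7 (-0.20) and NDUFS8 (-0.17) passed as lower, and NDUFS8 also passed with the GC and the length correction. NDUFS3 thus went from a mean of 102 to 72.1 FPKM while NDUFV1 went from 178 to 182.

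The accessory subunits, which surround the core and are needed for its assembly and stability, numbered 30. Of these, 16 fell, 0 rose and 14 did not pass in the edgeR test, and the median log2 fold change was -0.19. The 16 became 23 without control replicate 1 and 8 to 9 without 1 GDC-R library. At an unadjusted p under 0.05, and by DESeq2, 0 were higher, while limma at pseudocounts of 1 and 0.5 called 1, NDUFS4, as higher (0.09 in edgeR, not called). The edgeR test called 2 higher with the GC correction, 1 with the replicate block added to it, and 1 without control replicate 1. NDUFB5, of the membrane arm, measured 105, 91.7 and 88.2 FPKM in control and 64.0, 68.1 and 67.6 in GDC-R libraries. The lowest control was above the highest GDC-R library, and the log2 fold change was -0.53 ± 0.07 (adjusted p = 4.50e-04). NDUFA8, also of the membrane arm, measured 55.0, 57.0 and 58.0 FPKM in control and 45.9, 44.4 and 44.1 in GDC-R, again without overlap, a log2 fold change of -0.36 ± 0.05. NDUFB9, the most abundant complex I member, measured 407, 435 and 433 FPKM in control and 370.5, 366 and 342 in GDC-R. Its groups did not overlap and it fell by 0.26 ± 0.05 on the log2 scale.

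NDUFA5 is an accessory subunit whose log2 fold change of -0.70 ± 0.22 was the lowest of the members. It falls below the expression used for naming and was singled out after its values were seen. It measured 5.54, 2.93 and 3.41 FPKM in control and 2.74, 2.34 and 2.35 in GDC-R libraries, so that control replicate 1 was far above the others. Without that library its log2 fold change was -0.37, and without any GDC-R library in turn, or by limma, it did not pass.

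The 8 NDUFAF assembly factors help to build complex I and are not part of the finished enzyme. Of these, 5 fell, 1 rose and 2 did not pass. NDUFAF3 and NDUFAF4, which bind each other early in assembly, went in opposite directions. NDUFAF4 measured 10.3, 8.47 and 7.80 FPKM in control and 6.04, 6.34 and 5.81 in GDC-R libraries. NDUFAF3 measured 30.8, 34.3 and 36.5 FPKM in control and 43.6, 44.5 and 44.2 in GDC-R libraries. Neither gene's groups overlapped. NDUFAF4 fell by 0.57 ± 0.11 on the log2 scale (edgeR adjusted p = 0.00281), and NDUFAF3 rose by 0.36 ± 0.06 (edgeR adjusted p = 0.00168). NDUFAF3 overlaps DALRD3 on the opposite strand. NDUFAF1, NDUFAF5, NDUFAF7 and NDUFAF8 also fell, by 0.27 to 0.35 on the log2 scale, and the NDUFAF7 call was lost without control replicate 2 or GDC-R replicate 1 or 2. With the GC correction NDUFAF7 was at -0.17 and did not pass, and the NDUFAF5 call was lost with that correction and the replicate block together (-0.22).

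Of the 3 tested complex I rows that are antisense or readthrough transcripts, NDUFC2-KCTD14 fell by 0.13 on the log2 scale, a call lost without control replicate 2 or any GDC-R library, with library totals, at a mean FPKM of at least 5 and with the replicate block, and NDUFB2-AS1 (-0.00) and NDUFV2-AS1 (0.02) did not pass. Each shares its position with the subunit gene it is named after. Without strand and transcript information, reads of such pairs cannot be told apart.

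**Figure D3:**
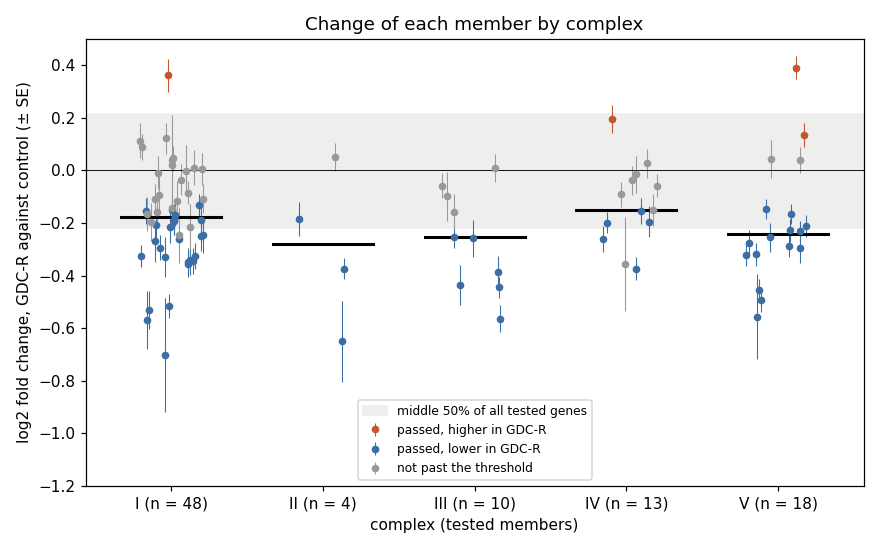
Log2 fold change of each tested member in GDC-R against control (vertical axis), arranged by complex (horizontal axis), with standard errors as bars, edgeR calls by colour and a horizontal bar at each complex's median. The shaded band spans the values of all tested genes between the 25th and 75th percentiles, -0.22 to 0.22; ATP5G2 and NDUFAF3 are the members above it, and every complex has members below it.

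Complex II, succinate dehydrogenase, is also an enzyme of the citrate cycle. SDHA, its flavin subunit, measured 80.4, 94.4 and 97.3 FPKM in control and 80.4, 80.2 and 81.9 in GDC-R libraries, so that control replicate 1 lay among the GDC-R libraries. Its log2 fold change was -0.19 ± 0.07 (edgeR adjusted p = 0.0424), and the call was lost when control replicate 2 or 3 or any GDC-R library was left out, by limma, with library totals and at a mean FPKM of at least 5. SDHB, the iron-sulphur subunit, measured 157, 160.1 and 161 FPKM in control and 124, 125 and 125 in GDC-R libraries. Its replicates lay close together and the groups well apart, with a log2 change of -0.37 ± 0.04 (edgeR adjusted p = 9.46e-05).

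SDHC and SDHD together anchor complex II in the membrane. SDHD measured 66.1, 45.4 and 41.9 FPKM in control and 32.2, 33.6 and 33.5 in GDC-R libraries. The groups did not overlap, and control replicate 1 was again the highest. The log2 fold change was -0.65 ± 0.15 (edgeR adjusted p = 0.00788) and -0.41 without that library. SDHC measured 21.3, 20.1 and 19.8 FPKM in control and 21.5, 21.3 and 21.5 in GDC-R libraries, with a log2 fold change of 0.05 ± 0.05 that did not pass. Without control replicate 1 it was 0.09 and passed, and with the GC correction 0.14 and passed.

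In complex III, the cytochrome bc1 complex, 6 of 10 members fell, 0 rose and 4 did not pass in the edgeR test, and the median log2 fold change was -0.25. No member was higher at an unadjusted p under 0.05, nor by DESeq2 or limma. UQCRFS1, the Rieske iron-sulphur protein, measured 83.4, 82.7 and 76.7 FPKM in control and 55.2, 55.7 and 55.7 in GDC-R libraries. The groups did not overlap, and its log2 fold change of -0.56 ± 0.05 (edgeR adjusted p = 4.72e-05) was the lowest in the complex. UQCRC1 and UQCRC2, the large core proteins that face the matrix, also fell. UQCRC2 measured 81.6, 85.6 and 83.9 FPKM in control and 62.0, 62.3 and 62.9 in GDC-R libraries, a log2 fold change of -0.44 ± 0.04. UQCRC1, the most abundant of the members in this complex, measured 312, 367 and 369 FPKM in control and 271, 271 and 269.8 in GDC-R, a log2 fold change of -0.39 ± 0.06. Neither gene's groups overlapped, and control replicate 1 was the lowest control for both.

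Of the small subunits of complex III, UQCRH, the hinge protein near cytochrome c1, fell by 0.26 ± 0.07 on the log2 scale, and UQCR10 by 0.25 ± 0.04. The UQCRH call was lost without GDC-R replicate 2 or 3. UQCRB, UQCRQ and UQCR11 had log2 fold changes of -0.16, -0.06 and 0.01 and did not pass. UQCRB passed at -0.07 without control replicate 1, and also without a filter (-0.19) and with the length correction (-0.18). UQCRHL, an intronless copy of UQCRH, measured 145, 121 and 135 FPKM in control and 101, 105 and 95.4 in GDC-R libraries, a log2 fold change of -0.44 ± 0.08. Reads of UQCRH and its copy may be split between the rows, so both values are uncertain. The pseudogene row UQCRBP1 had a log2 fold change of -0.10 and did not pass.

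Complex IV, cytochrome c oxidase, differed least in its sum. Of 13 tested members, 5 fell, 1 rose and 7 did not pass, and the median log2 fold change was -0.15. COX4I1, the widely expressed form of subunit 4, measured 297, 323 and 326 FPKM in control and 241, 251 and 248 in GDC-R libraries. The groups did not overlap, and the log2 fold change was -0.37 ± 0.05 (edgeR adjusted p = 2.31e-04). COX7B, a small membrane subunit, went from 473 ± 18.9 to 399.8 ± 12.6 FPKM, and COX6B1, which joins the monomers of the enzyme, from 282 ± 2.64 to 249 ± 2.31. They fell by 0.26 ± 0.05 and 0.20 ± 0.04 on the log2 scale, without overlap between groups, and COX7B was at -0.16 with the GC correction.

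COX5B and COX5A, subunits on the matrix side, fell by 0.19 ± 0.06 and 0.16 ± 0.05 on the log2 scale. COX5B measured 298, 346 and 343 FPKM in control and 288, 288 and 298 in GDC-R libraries, and the groups overlapped at control replicate 1. The COX5B call was lost without control replicate 2 or 3 or any GDC-R library, and the COX5A call without control replicate 2 or 3 or GDC-R replicate 1 or 3. The COX5B call was also lost by limma, and the COX5A call with library totals, at a mean FPKM of at least 5 and with the replicate block.

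COX6A1, the widely expressed form of subunit 6A, was the member of complex IV that rose. It measured 272, 307 and 307 FPKM in control and 336, 356 and 337 in GDC-R libraries, so that every GDC-R library was above every control. The log2 fold change was 0.20 ± 0.05 (edgeR adjusted p = 0.0163), and it did not pass without GDC-R replicate 2 and was 0.30 with the GC correction. COX8A, the most abundant member of complex IV, measured 751, 842 and 797 FPKM in control and 767, 742 and 764 in GDC-R. Its groups overlapped, and its log2 fold change of -0.09 ± 0.05 did not pass. COX7C, COX7A2, COX6C and NDUFA4 did not pass either, with log2 fold changes of -0.15, 0.03, -0.02 and -0.04. Without control replicate 1, COX8A (-0.13) and COX7C (-0.09) passed as lower, and COX7A2 (0.08) and COX6C (0.074) as higher. COX8A (-0.10) and COX7A2 (0.12) passed with the GC correction too, and COX7C passed at -0.20 without control replicate 3 and at -0.18 without a filter.

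Several complex IV subunits have isoforms that are restricted to muscle, testis, lung or hypoxic cells, and most of these rows were at or near 0. COX6A2, the heart and muscle form, was listed at 0 fragments in each of the 6 libraries, which allows up to 3 fragments in each for counting error. COX4I2 had 1 fragment, in GDC-R replicate 3. COX7A1, COX8C and COX6B2 had 2 to 25 fragments per library, and none of these rows was tested. NDUFA4L2, a relative of NDUFA4 that is induced by hypoxia, had 11, 16 and 19 fragments in control and 23, 27 and 26 in GDC-R libraries, with GDC-R above control, below the level tested. Its row overlaps SHMT2 on the opposite strand, and without the strand setting the source of these few fragments is uncertain. COX7B2, a testis form, was higher than these at 3.76 ± 0.356 FPKM in control libraries, and was tested. COX7B2 (log2 fold change -0.36 ± 0.18) and COX7A2L (-0.06 ± 0.04), which takes part in joining complexes III and IV, did not pass.

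In complex V, the ATP synthase, 14 of 18 tested members fell, 2 rose and 2 did not pass, and the median log2 fold change was -0.24. The 18 include the readthrough row ATP5J2-PTCD1 and, by symbol alone, ATP5S and ATP5SL, which were not counted as subunits. Of the 15 subunits, 12 fell, 2 rose and 1 did not pass. In the catalytic head, ATP5A1 (alpha), ATP5B (beta), ATP5C1 (gamma) and ATP5D (delta) fell. ATP5B, the most abundant member of the complex, measured 746, 821 and 836 FPKM in control and 695, 694 and 689 in GDC-R libraries. ATP5A1 measured 142, 152 and 157 FPKM in control and 120.3, 124 and 122 in GDC-R. Neither gene's groups overlapped, and the log2 fold changes were -0.23 ± 0.04 for ATP5B and -0.32 ± 0.04 for ATP5A1. ATP5C1 fell by 0.21 and ATP5D by 0.30 on the log2 scale.

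ATP5E, the small epsilon subunit of the same head, was higher in each GDC-R library. It measured 456, 477 and 464 FPKM in control and 536, 493 and 527 in GDC-R libraries. The groups did not overlap, and the log2 fold change was 0.13 ± 0.05 (edgeR adjusted p = 0.0372). The call was lost without control replicate 2 or 3 or GDC-R replicate 1 or 3, with the replicate block and without a filter, and the value was 0.25 and passed with the GC correction. The gene overlaps the readthrough row SLMO2-ATP5E on the same strand.

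Of the peripheral stalk, which holds the head still, ATP5F1, ATP5J and ATP5O fell by 0.29, 0.23 and 0.17 on the log2 scale, and ATP5H had a log2 fold change of 0.04 ± 0.05 that did not pass (0.08, passing, without control replicate 1). ATP5I, ATP5J2 and ATP5L, small subunits of the membrane part, fell by 0.28, 0.32 and 0.15. The ATP5O call was lost without GDC-R replicate 3 and the ATP5L call without any of the GDC-R libraries. With the GC correction ATP5L was at -0.015 and did not pass. ATP5J2 measured 235, 232 and 241 FPKM in control and 190.5, 196 and 189 in GDC-R libraries, without overlap, and shares its position with the readthrough row ATP5J2-PTCD1, which fell by 0.25. ATP5S, a coupling factor related protein, fell by 0.56 ± 0.16 from 3.58 ± 0.635 FPKM and lost the call without GDC-R replicate 2. ATP5SL, named DMAC2 in RefSeq, had a log2 fold change of 0.04 and did not pass.

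The rotor ring of complex V is built from subunit c, and 3 genes, ATP5G1, ATP5G2 and ATP5G3, encode the same mature subunit c with different import sequences. These genes went in opposite directions. ATP5G1 measured 192, 199.7 and 198 FPKM in control and 146, 137 and 140.5 in GDC-R libraries. ATP5G3 measured 72.5, 77.0 and 76.7 FPKM in control and 56.4, 56.0 and 54.9 in GDC-R libraries. Both were lower in every GDC-R library than in any control, with log2 fold changes of -0.49 ± 0.04 (edgeR adjusted p = 4.41e-05) for ATP5G1 and -0.45 ± 0.04 (edgeR adjusted p = 4.31e-05) for ATP5G3. ATP5G2 measured 35.8, 38.3 and 37.1 FPKM in control and 49.3, 49.6 and 48.9 in GDC-R libraries. Every GDC-R library was above every control, and the log2 fold change of 0.39 ± 0.04 (edgeR adjusted p = 1.29e-04) was the highest of the members.

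ATP5G2 lay between 0.37 and 0.41 with each library left out in turn. The summed FPKM of the 3 genes was 308.8 ± 7.87 in control and 246 ± 4.77 in GDC-R libraries. Within that sum, ATP5G2 made up 11.9%, 12.2% and 11.9% in control replicates 1 to 3 and 19.6%, 20.4% and 20.0% in GDC-R replicates 1 to 3. ATP5G1 made up 63.6% ± 0.266 (SD, n = 3) in control and 57.3% ± 0.763 in GDC-R, and ATP5G3 24.4% ± 0.215 and 22.7% ± 0.370. ATP5G2 (hg19 chromosome 12, 54058944 to 54070512) lies among genes that were also higher: its 24 nearest tested neighbours had a median log2 fold change of 0.36. ATP5B, which fell, lies on the same chromosome among neighbours with a median of 0.46.

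**Figure D4:**
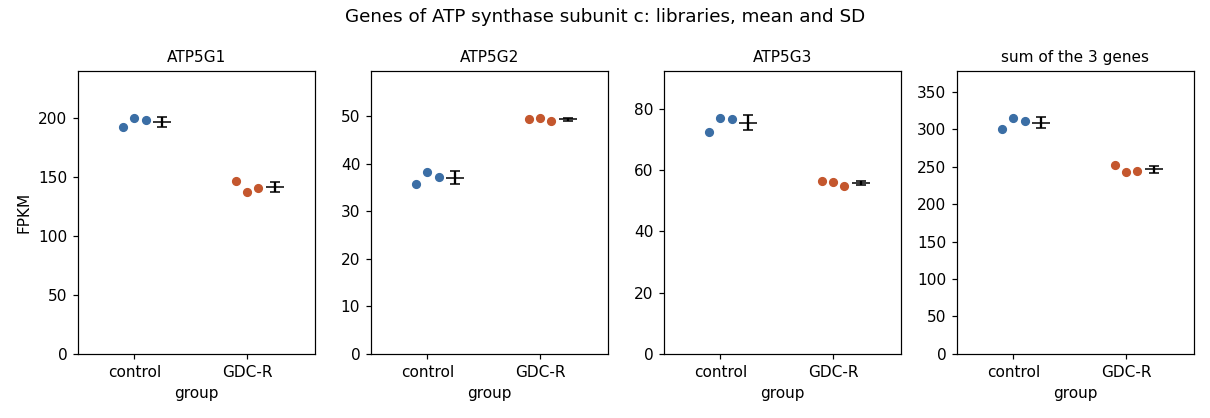
FPKM of ATP5G1, ATP5G2 and ATP5G3 and of their sum (vertical axis, from 0) in the 6 libraries (points, by group), with the mean and SD of each group. ATP5G1 and ATP5G3 are lower and ATP5G2 is higher in each GDC-R library than in any control.

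Members were also set beside the genes around them. Of the 93 tested members, 46 had neighbours (up to 12 tested genes on each side) with a median log2 fold change below 0, and 80 lay below their neighbours' median. The same counts were not made over all tested genes, so these have no share to stand beside, and they were not tested. Among members whose row overlaps no other gene row, 42 of 68 fell and 2 rose, with a median log2 fold change of -0.20.

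Nuclear respiratory chain genes are known targets of the transcription factor NRF1, and their start regions often hold motifs for NRF1, ETS factors, YY1 and ESRRA. RefSeq promoters (GRCh38.p14, 250 bases before to 50 after the start) were matched for 80 of the 102 members and searched on both strands. The motifs were matched as exact letters, and overlaps between motifs were kept. The NRF1 motif GCGCATGC was found in 17 of 80 members (21.3%) and in 3.68% of 27305 genes. The YY1 motif AAGATGGCG was found in 11 members (13.8%) and 2.14% of genes, the ETS motif CCGGAAGTG in 3 (3.75%) and 2.81%, and the ESRRA motif TCAAGGTCA in 1 (1.25%) and 0.432%. NDUFA6 and the antisense row NDUFA6-AS1 have overlapping promoter windows, and their NRF1 and YY1 matches are the same bases. Both rows are counted in the 17 and in the 11. A match describes letters, not binding.

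Of the 16 tested members with the NRF1 motif, 13 fell, 2 rose (ATP5G2 and COX6A1) and 1 did not pass, and the median log2 fold change was -0.25. Of the 59 tested members whose promoter lacked these letters, 31 fell, 2 rose and 26 did not pass, with a median of -0.16. This split is a description and was not tested. It was not made over all tested genes, of which 25.7% fell and 24.5% rose. Calls of members with the motif were lost under some alternatives, among them those of COX5B, NDUFB4, NDUFA5 and COX6A1. Upstream stretches of 6 promoters with the NRF1 motif are printed to show it in members that rose and members that fell. They run 5′ to 3′ on the gene's strand, from RefSeq on GRCh38.p14, with the motif letters in capitals, and overlapping matches on both strands joined.
ATP5C1 (fell, chr10:7788097-7788176, plus strand): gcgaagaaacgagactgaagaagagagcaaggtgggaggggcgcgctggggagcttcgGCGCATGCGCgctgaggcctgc
NDUFS6 (fell, chr5:1801325-1801404, plus strand): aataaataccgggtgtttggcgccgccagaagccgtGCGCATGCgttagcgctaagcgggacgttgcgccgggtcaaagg
NDUFB4 (fell, chr3:120596142-120596221, plus strand): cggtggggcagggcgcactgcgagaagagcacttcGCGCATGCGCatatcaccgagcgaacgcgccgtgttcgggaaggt
COX5B (fell, chr2:97645890-97645969, plus strand): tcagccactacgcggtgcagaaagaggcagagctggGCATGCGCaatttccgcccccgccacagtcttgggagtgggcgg
COX6A1 (rose, chr12:120437881-120437960, plus strand): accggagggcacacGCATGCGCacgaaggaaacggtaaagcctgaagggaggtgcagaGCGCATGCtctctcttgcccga
ATP5G2 (rose, chr12:53676345-53676424, minus strand): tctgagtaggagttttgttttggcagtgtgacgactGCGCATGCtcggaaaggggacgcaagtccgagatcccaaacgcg
Of these members, NDUFS6 and NDUFB4 are accessory subunits of complex I that fell by 0.32 and 0.21 on the log2 scale, the NDUFB4 call being lost without GDC-R replicate 3 and its value -0.11 with the GC correction. All 6 promoters were printed because they hold the motif, so that they share its 8 letters is not a result. Of the 4 members that rose, NDUFAF3 and ATP5E lacked these letters. COX6A1 carries them at 2 places in the stretch printed. ATP5G2 has 3 RefSeq promoter windows, and another of them also holds the letters.

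The other genes of the pathway were read from lists chosen with earlier results of these data known. Their counts stand beside 25.7% of all tested genes lower and 24.5% higher, shares that were 32.9% and 31.9% without control replicate 1 and 18.1% to 18.7% and 19.5% to 20.4% without 1 GDC-R library. Of 6 further chain subunits and carriers, 5 fell and 1 rose. The 5 became 2 without any 1 of the GDC-R libraries and by limma, and 3 by DESeq2. CYC1, cytochrome c1 of complex III, went from 444 ± 39.5 to 354 ± 7.79 FPKM, a log2 fold change of -0.35 ± 0.06. CYCS, the electron carrier cytochrome c, measured 69.0, 40.3 and 38.5 FPKM in control and 31.4, 31.2 and 33.1 in GDC-R libraries, with control replicate 1 far above the others. Its log2 fold change was -0.65 ± 0.20, -0.32 without control replicate 1, and it did not pass without any of the GDC-R libraries, by DESeq2 or by limma. ATPIF1, which inhibits ATP synthase when it runs in reverse, rose with a log2 fold change of 0.31 ± 0.05, from 30.0 ± 0.952 to 37.7 ± 1.35 FPKM. USMG5, a small ATP synthase subunit, fell by 0.45 ± 0.09.

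Assembly factors outside the member names were counted by the complex they serve. Of 8 for complex I, 2 fell, 1 rose and 5 did not pass in the edgeR test, and the 2 that fell became 5 without control replicate 1 and 1 without any of the GDC-R libraries. COA1 had a log2 fold change of 0.32 ± 0.05 and NUBPL, which delivers iron-sulphur clusters, -0.28 ± 0.06, though NUBPL did not pass with the GC correction (-0.14). TMEM126B stood at -0.45 and at -0.26 without control replicate 1, and did not pass without any of the GDC-R libraries. Of 4 for complex II, 2 fell (3 without control replicate 1 or with the GC or length correction, and 1 without control replicate 3, without GDC-R replicate 1 or 3, or at a mean FPKM of at least 5), with SDHAF3, which matures SDHB, at -0.94 ± 0.10 and from 5.73 ± 0.369 to 3.02 ± 0.283 FPKM. Of 6 for complex III, 2 fell (3 without control replicate 1, and 1 without GDC-R replicate 3 or with the GC correction), BCS1L, which inserts the Rieske protein, at -0.27 (not past the threshold without GDC-R replicate 3) and TTC19 at -0.24 (-0.13, not past the threshold, with the GC correction). Of 23 for complex IV, 9 fell, 3 rose and 11 did not pass, which became 11 fallen and 7 risen without control replicate 1, and 8 fallen and 2 to 4 risen without 1 GDC-R library. COA6 (-0.67 ± 0.13), HIGD1A (-0.65 ± 0.12), COX11 (-0.45 ± 0.14) and SCO2 (-0.40 ± 0.09) had the lowest log2 fold changes of that list. COX11, SCO2 and COA6 serve copper delivery to the enzyme. COX11 was at -0.24 without control replicate 1 and did not pass without any of the GDC-R libraries or by limma. COA3, SURF1 and COX19 rose, at 0.36, 0.34 and 0.32, and SURF1 did not pass without GDC-R replicate 2. Of 4 for complex V, ATPAF1 (-0.56 ± 0.05), TMEM70 (-0.43 ± 0.09) and ATPAF2 (-0.41 ± 0.08) fell.

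Of 14 tested regulators of respiratory chain genes, 5 fell, 2 rose and 7 did not pass. NRF1 itself had a log2 fold change of -0.12 ± 0.07 and did not pass (-0.17, passing, without control replicate 1), and PPARGC1A, the coactivator PGC-1 alpha, was listed at 0 FPKM in every library. TFAM, which packages and transcribes mitochondrial DNA, had a log2 fold change of -0.41 ± 0.12. TFAM was at -0.23 without control replicate 1 and did not pass without any of the GDC-R libraries. GABPB1, a partner of the ETS factor GABPA, fell by 0.30 and TFB2M, a mitochondrial transcription factor, by 0.25, and with the GC correction they were at -0.18 and -0.16. MYC measured 82.9, 91.4 and 98.1 FPKM in control and 125, 126 and 121 in GDC-R libraries, all above control, with a log2 fold change of 0.43 ± 0.06. PPRC1, a relative of PGC-1 alpha, had a log2 fold change of 0.33 ± 0.06. Without control replicate 1, 7 of these regulators fell and 3 rose, without control replicate 2, 3 fell, and without any 1 of the GDC-R libraries 2 fell and 2 rose.

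The citrate cycle and the pyruvate dehydrogenase complex, which supply NADH to complex I, were read in the same way. Of 20 tested genes, 15 fell, 2 rose and 3 did not pass (12 to 13 fallen and 1 risen without 1 GDC-R library), and the median log2 fold change was -0.36. DLD, a subunit shared by the pyruvate and oxoglutarate dehydrogenases, measured 50.9, 43.2 and 42.7 FPKM in control and 28.9, 27.7 and 27.3 in GDC-R libraries. OGDH, the oxoglutarate dehydrogenase subunit, measured 36.7, 42.9 and 44.7 FPKM in control and 24.9, 25.6 and 25.7 in GDC-R. Neither gene's groups overlapped, and each had a log2 fold change of -0.73 ± 0.07. FH, fumarate hydratase, which acts on the product of complex II, went from 228 ± 5.62 to 157 ± 2.94 FPKM, a log2 fold change of -0.56 ± 0.04. PDK1, a kinase that switches pyruvate dehydrogenase off, fell by 0.71 ± 0.07. PDK2 and PDK3, kinases of the same family, rose, at 0.22 and 0.39, and PDK2 did not pass without any of the GDC-R libraries, while PDK3 was at 0.21 with the length correction.

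Member calls were also counted by whether they held in every alternative. Of the 53 members that fell, 33 passed in every alternative computed for them, and of the 4 that rose, ATP5G2 and NDUFAF3 did. By complex, 12 of 25 fallen members of complex I, 2 of 3 of complex II, 5 of 6 of complex III, 3 of 5 of complex IV and 11 of 14 of complex V passed throughout. These counts were not compared between complexes, and the same share was not computed over all genes that passed.

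**Figure D5:**
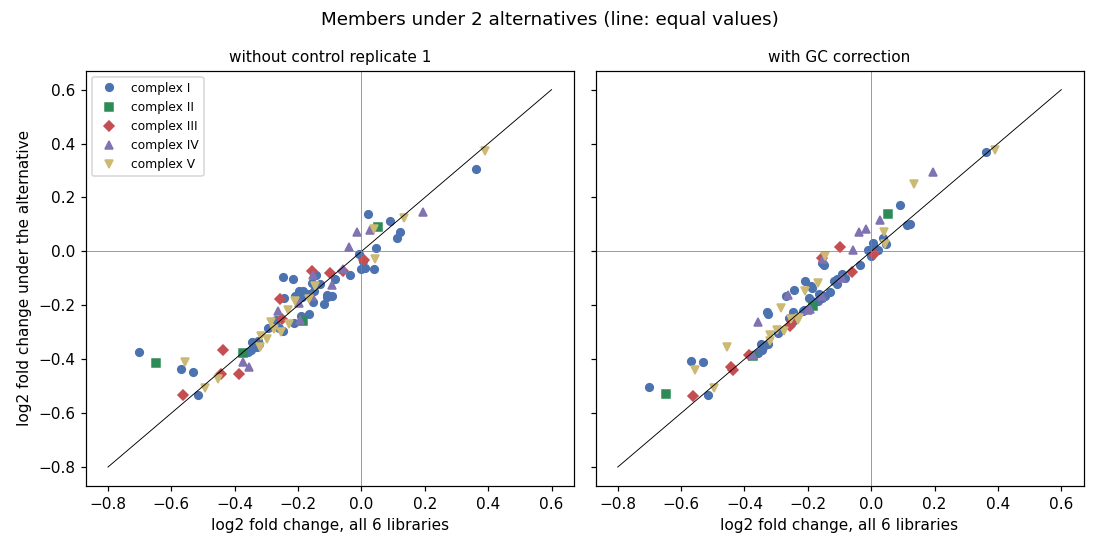
Log2 fold change of each tested member with control replicate 1 left out (left) or with a GC correction (right) on the vertical axis, against the value from all 6 libraries on the horizontal axis, marked by complex. Most points lie near the line of equal values, and NDUFA5 (-0.70 to -0.37) and SDHD (-0.65 to -0.41) lie above it on the left.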

How the data were processed

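RNA of 3 control and 3 GDC-R libraries was analysed. The aligner was TopHat2 2.0.6 and the build hg19, per the submitters' processing notes. The counting tool, gene models and strand setting are not given in sources used here. Fragment counts, as deposited, are whole and not normalized. From them and an mRNA size per gene the authors computed the FPKM. The score FPM, also deposited, is the count scaled by the authors' fragment total. Positions are printed counted from 1.

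The members, lists and tests were chosen with earlier results of these data known. The 849 rows with a repeated symbol (396 symbols) were not tested, and genes needed a mean FPKM of at least 1. Counts were tested in edgeR 4.0.16 (quasi-likelihood, TMM, group only; R 4.3.3) with Benjamini-Hochberg adjustment over the 13070 genes and a threshold of 0.05. The common biological coefficient of variation was 7.17% and normalization factors were 0.985 to 1.01. No test was made of a list or of summed FPKM. The pipeline was tested on simulated data.

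Named with full statistics were, in each complex, up to 4 largest rises and falls that passed with a mean of at least 5 FPKM in the higher group, the most abundant member, the complex I core subunits, SDHA to SDHD, and the isoform groups of complexes IV and V. In other lists, up to 4 passing genes with the largest change were named. Genes named beyond this were chosen after their values were seen. Alternatives were RLE scaling, library totals, filters, repeated symbols kept, GC and length corrections (loess, span 0.3; GENCODE 29 transcripts for GC), a replicate block, each library left out, DESeq2 1.42.0, limma 3.58.1 on log2(FPKM + 1, 0.5 or 0.1), members without assembly and antisense rows, and, added after the data were seen, members without an overlapping gene row. Promoters of 80 members were read from RefSeq (GRCh38.p14), and 101 members matched a RefSeq name. Values of some genes that the naming rule or the marker lists take are not reported here.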

Additional observations from a re-analysis of the deposited data

How the results depend on the processing

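The main calls were 53 members lower and 4 higher. RLE scaling and DESeq2 gave 53 and 4. Leaving out each library in turn gave 37 to 66 lower and 3 to 9 higher. The 9 came without control replicate 1, which also gave the most calls over all genes (4165 higher and 4298 lower against 3200 and 3360). Without any 1 GDC-R library, all-gene calls were 2368 to 2669 in each direction. The GC correction, alone and with the replicate block, gave 8 members higher, where 33.8% and 33.3% of all genes were called higher. Leaving out members with an overlapping gene row gave 2 higher. Same-numbered libraries of the groups had deviation correlations of 0.0132, 0.0844 and -0.0987, so the numbers were not taken as pairs. A replicate block gave 51 lower and 3 higher.

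By complex, leaving out each library gave 14 to 35 lower and 1 to 2 higher in complex I, 0 to 1 higher in complex II, 3 to 7 lower and 0 to 3 higher in complex IV, and 1 to 3 higher in complex V. Complex I had 3 higher with the GC correction, 2 with the block and GC correction and with limma at pseudocounts of 1 and 0.5, and 0 when assembly and antisense rows, or overlapping rows, were left out. Complex II had 1 higher with the GC correction, with and without the block. Complex IV had 2 with it and 3 with the block added. Complex V had 1 higher without a filter, with the block, with the block and length correction, and without overlapping rows, where 8 of 10 were lower.

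The median log2 fold change of -0.19 became -0.17 with library totals, the GC correction with and without the block, and limma at each of the 3 pseudocounts. It was -0.22 without a filter, -0.16 at a mean FPKM of at least 5 and -0.20 without overlapping rows, and ranged from -0.19 to -0.18 with each library left out. With TMM scaling, summed FPKM changed by -20.4% in complex II and -19.3% in complex III. Shorter motif letters were found in 23.8% (NRF1), 37.5% (ETS), 30.0% (YY1) and 12.5% (ESRRA) of member promoters, against 8.80%, 22.6%, 6.66% and 4.80% of all genes. COX6C, at -0.02 and not called, ran from -0.062 to 0.074 with each library left out, the highest being without control replicate 1, where it passed (edgeR adjusted p = 0.0494), and passed at 0.083 with the block and GC correction (0.0496). Signs of values past no threshold were not counted as directions. Of 1856 values of single members under the alternatives, 1678 kept their direction and side of the threshold, 109 no longer passed, 67 newly passed and 2 turned, both of COX6C. The causes were not tested.

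With 3 libraries per group from 1 line each, whether a log2 change passed depended on its standard error as well as its size. NDUFC2-KCTD14 passed at -0.13 ± 0.04, while NDUFC2 did not pass at -0.25 ± 0.10. The values are RNA levels, and subunit proteins were not measured in these files.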

Other observations

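The tables also hold the mitochondrial ribosomal RNA rows RNR1 and RNR2, which were looked at after their values were seen. The small ribosomal subunit gene RNR1 measured 116, 124 and 250.3 FPKM in control and 178, 164 and 166 in GDC-R libraries, with overlap, and did not pass (log2 fold change 0.03, edgeR adjusted p = 0.929). The large ribosomal subunit gene RNR2 measured 318, 257 and 340.3 FPKM in control and 421, 388 and 414 in GDC-R libraries, without overlap, and rose by 0.40 ± 0.09 on the log2 scale (edgeR adjusted p = 0.00778). RNR1 and RNR2 were the only rows placed on mitochondrial DNA, so its protein-coding genes could not be read here.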
